A study of Mus musculus with 15 samples.

Results

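The hypoxia-inducible factors (HIFs), the enzymes that sense oxygen for them and a set of their target genes were read in the cecum of mice whose gut microbes had been depleted with antibiotics. The members are 10 genes listed by name, with no threshold on their values: the HIF subunits Hif1a, Epas1 and Arnt, the oxygen sensors Egln1 and Egln3, and the target genes Vegfa, Bnip3, Adm, Ndrg1 and Ankrd37. Each was found among the 45808 rows of the deposited table, and all 10 stayed above 0.5 FPKM (sequenced fragments scaled by the length of the transcript and the depth of the library) in each of the 15 mice. The 7 AIMD mice (antibiotic-induced microbiome depletion) and the 8 vehicle-treated mice were male wild-type C57BL/6 animals aged 20 weeks. AIMD mice were gavaged 2 times a day for 30 days with ampicillin, vancomycin, neomycin, metronidazole and the antifungal amphotericin B, and vehicle-treated mice were gavaged with water. Each library came from the poly-A RNA of 1 emptied whole cecum, and neither group carried a genetic change. Reads on genes numbered 8679640 to 18108536 per library in AIMD mice and 4372377 to 14405838 in vehicle-treated mice. Mice were housed 3 to 4 to a cage, and the cage and the hour of sacrifice of each mouse are not given in the labels, so an effect of either cannot be told apart from the spread between mice.

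A HIF is a pair of proteins, an alpha subunit (HIF1α from Hif1a or HIF2α from Epas1) and the shared partner ARNT. In oxygenated cells the EGLN prolyl hydroxylases mark the alpha subunit, the VHL ubiquitin ligase binds the mark, and the protein is degraded; when oxygen is short the alpha subunit persists and switches on genes for glycolysis, blood vessel growth, mitochondrial turnover and the EGLN enzymes themselves. In the large intestine the epithelium borders a lumen almost free of oxygen and burns microbial butyrate, which uses up oxygen, and HIF is known there for its part in keeping the barrier. HIF activity is set mostly by protein stability, which RNA levels do not measure.

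HIF binds short DNA motifs whose core reads ACGTG or GCGTG. The windows printed here show where that core lies just upstream of 4 of the 5 members that were called different between the groups, and of the pair of genes in which it sits inside the palindrome CACGTG, the E-box that the clock proteins CLOCK and ARNTL also bind. RefSeq windows of the GRCm38.p6 build, from 250 bases before to 50 bases after a transcript start, were found for 8 of the 10 members, with Epas1 and Ndrg1 not among them. Annotated exon bases were left off the printed stretches. Each is written 5′ to 3′ on the strand of its gene, and capitals mark the core on either strand (CACGT and CACGC are its reverse complements). They are Egln1 (chr8:124949325-124949504, minus strand), Egln3 (chr12:54203875-54204124, minus strand), Adm (chr7:110627407-110627656, plus strand), Ankrd37 (chr8:45999868-46000100, minus strand), and the 30 bases around the palindrome of Hif1a (chr12:73907720-73907749, plus strand) and of Bnip3 (chr7:138909597-138909626, minus strand).
Egln1: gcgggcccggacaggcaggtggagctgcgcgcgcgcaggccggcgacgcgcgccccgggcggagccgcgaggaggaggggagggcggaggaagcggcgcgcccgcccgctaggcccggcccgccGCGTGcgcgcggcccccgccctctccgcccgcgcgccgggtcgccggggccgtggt
Egln3: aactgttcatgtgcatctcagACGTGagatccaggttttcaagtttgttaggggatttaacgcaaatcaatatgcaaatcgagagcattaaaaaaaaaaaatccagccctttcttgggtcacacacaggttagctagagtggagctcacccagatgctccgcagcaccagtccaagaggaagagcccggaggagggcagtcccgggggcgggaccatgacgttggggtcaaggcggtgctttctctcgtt
Adm: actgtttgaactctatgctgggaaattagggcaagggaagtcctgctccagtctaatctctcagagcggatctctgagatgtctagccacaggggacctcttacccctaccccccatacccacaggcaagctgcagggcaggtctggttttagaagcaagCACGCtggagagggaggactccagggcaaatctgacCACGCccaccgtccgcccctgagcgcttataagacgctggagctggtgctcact
Ankrd37: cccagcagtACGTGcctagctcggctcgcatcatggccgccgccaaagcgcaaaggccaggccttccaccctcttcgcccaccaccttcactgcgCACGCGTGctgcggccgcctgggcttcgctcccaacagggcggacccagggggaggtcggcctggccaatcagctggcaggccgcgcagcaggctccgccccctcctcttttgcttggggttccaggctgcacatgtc
Hif1a: cacacagacaagCACGTGagcggggcagct
Bnip3: gcgCACGCgccgCACGTGccaCACGCtccc
Counted on both strands over the part of the window before the start, so that a palindrome counts as 2, the core was found 5 times for Bnip3, 4 times for Ankrd37, 3 times for Hif1a, 2 times each for Egln1 and Adm, and 1 time each for Egln3 and Arnt; 1 match each of Egln1 and Ankrd37 lies in the bases left off. Vegfa had none at its first start and 2 at a second, inner start. At least 1 match was present in 43.8% of the 32817 mouse windows of the same length, at least 2 in 20.6%, and CACGTG in 7.15%. The members' windows were 54.7% to 86.0% G or C. A match of letters describes the window and is not evidence of binding.

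Among the members, 5 of 10 were higher in AIMD mice at a limma adjusted p under 0.05: the oxygen sensors Egln3 and Egln1 and the targets Ankrd37, Adm and Ndrg1. Over all 11971 genes tested, 36.0% were called and 19.4% were called higher. The median log2 fold change of the 10 members was 0.69, beside 0.01 over all genes tested. The 3 HIF subunits and the targets Vegfa and Bnip3 did not pass the test with all mice together. No member was called lower, where 16.6% of all genes were, and the count was also 0 at an unadjusted p under 0.05 and with limma voom. In bulk tissue, fewer cells of a type and less RNA per cell cannot be told apart.

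Hif1a, the alpha subunit found in most cell types, had 10.5, 20.1 and 26.6 FPKM (lowest, median, highest) in AIMD mice and 6.85, 12.0 and 21.0 FPKM in vehicle-treated mice. The groups overlapped, with 3 AIMD mice above every vehicle-treated mouse and 3 vehicle-treated mice below every AIMD mouse. The means were 19.3 ± 6.39 FPKM (SD, n = 7) and 13.0 ± 5.13 FPKM (SD, n = 8), a log2 fold change of 0.58 (SE 0.25) with a limma adjusted p of 0.0816. With a score of clock gene expression as a covariate, the limma adjusted p of Hif1a was 0.0168. That score was centred within groups, so it could not change the size of the difference. With the clock set as a factor, which was not centred, the log2 fold change was 0.51 (limma adjusted p = 0.00512). Over the 29 alternatives its adjusted p ran from 0.00512 to 0.156, and 5 of them called it higher, among them those without AIMD replicate 2 (adjusted p = 0.0367) and without vehicle replicate 5 (adjusted p = 0.0389). Of the 50-base reads that the annotated Hif1a transcripts could yield, 5.74% have the same sequence as another gene, chiefly the overlapping Gm15283.

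Epas1, the alpha subunit known for iron uptake and for blood vessels, had 6.59, 12.7 and 17.96 FPKM in AIMD mice and 9.40, 13.2 and 21.4 FPKM in vehicle-treated mice. The ranges largely coincided, and the lowest mouse of all was an AIMD mouse. The log2 fold change was -0.21 (SE 0.20) with a limma adjusted p of 0.437, and no alternative called it. Arnt, the partner that both alpha subunits need, was the steadiest member: AIMD mice had 3.65, 4.24 and 5.32 FPKM and vehicle-treated mice 3.64, 4.56 and 5.81 FPKM. Its log2 fold change was -0.07 (SE 0.11, limma adjusted p = 0.625), with coefficients of variation of 12.6% and 14.7% in the groups.

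Egln3, a prolyl hydroxylase whose gene HIF itself switches on, rose most among the sensors. It had 24.7, 34.7 and 62.5 FPKM in AIMD mice and 5.78, 10.2 and 27.3 FPKM in vehicle-treated mice. The groups met at a single vehicle-treated mouse, replicate 8, which lay above the lowest AIMD mice, and the other 7 vehicle-treated mice lay below all AIMD mice. The means of 35.0 ± 13.4 FPKM (SD, n = 7) and 12.5 ± 7.18 FPKM (SD, n = 8) stood in a ratio of 2.79, with a log2 fold change of 1.54 (SE 0.29, limma adjusted p = 0.000693). Every one of the 29 alternatives called Egln3 higher, with adjusted p from 1.17e-05 to 0.0119.

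Egln1, the main prolyl hydroxylase of most cells, had 18.9, 26.0 and 29.6 FPKM in AIMD mice and 9.69, 14.7 and 20.2 FPKM in vehicle-treated mice. Of the AIMD mice, 6 lay above every vehicle-treated mouse, and vehicle replicate 8 was again the only one to reach into the AIMD range. The log2 fold change was 0.74 (SE 0.15, limma adjusted p = 0.00109), from means of 24.6 ± 3.82 FPKM (SD, n = 7) and 14.7 ± 3.34 FPKM (SD, n = 8). Egln1 varied less between mice than Egln3 did, with coefficients of variation of 15.5% and 22.7% in AIMD and vehicle-treated mice against 38.3% and 57.3%.

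Ankrd37, a small ankyrin-repeat protein long used as a HIF target gene, separated the groups fully. AIMD mice had 18.8, 24.3 and 33.5 FPKM and vehicle-treated mice 4.65, 7.18 and 18.2 FPKM. All AIMD mice lay above all vehicle-treated mice, which held for 2 members, Ankrd37 and Ndrg1, and for 5.27% of all genes tested. The means of 24.7 ± 4.91 FPKM (SD, n = 7) and 8.94 ± 4.79 FPKM (SD, n = 8) gave a log2 fold change of 1.54 (SE 0.25, limma adjusted p = 0.000192). On the opposite strand Ankrd37 overlaps Lrp2bp and Ufsp2, and 17.0% of the 50-base reads of its transcripts could also be assigned to another gene; the strand setting used in counting is not given in the sources used here. Lrp2bp itself was at 0.144 ± 0.0621 FPKM in AIMD mice and 0.187 ± 0.0858 FPKM in vehicle-treated mice. Ufsp2 was at 20.7 ± 1.86 and 19.3 ± 1.55 FPKM, a log2 difference of 0.09 (limma adjusted p = 0.453).

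Ndrg1, a stress-response gene of the differentiated colon epithelium and the most abundant member, had 111.8, 170.1 and 263.2 FPKM in AIMD mice and 66.1, 87.0 and 108.5 FPKM in vehicle-treated mice. The highest vehicle-treated mouse lay just under the lowest AIMD mouse. The means of 169.8 ± 50.02 FPKM (SD, n = 7) and 87.2 ± 15.2 FPKM (SD, n = 8) gave a log2 fold change of 0.92 (SE 0.17, limma adjusted p = 0.000620). Ndrg1 rested on at least 2967 reads in each library, so counting error was small beside the spread between mice.

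Adm encodes adrenomedullin, a peptide that widens vessels and tightens endothelial and epithelial barriers. It had 4.24, 7.09 and 9.42 FPKM in AIMD mice and 1.87, 2.55 and 6.05 FPKM in vehicle-treated mice. Of the vehicle-treated mice, 6 lay below every AIMD mouse, and replicates 6 and 8 lay within the AIMD range. The log2 fold change was 0.97 (SE 0.24, limma adjusted p = 0.00464), from means of 6.61 ± 1.88 FPKM (SD, n = 7) and 3.30 ± 1.71 FPKM (SD, n = 8). Adm was the member with the fewest reads, 23 to 91 in vehicle-treated and 79 to 217 in AIMD libraries.

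Bnip3, which marks mitochondria for removal, had 12.7, 16.5 and 41.0 FPKM in AIMD mice and 5.62, 13.8 and 20.1 FPKM in vehicle-treated mice. The ranges overlapped widely, and 1 AIMD mouse, replicate 4, stood far above the rest. The log2 fold change was 0.63 (SE 0.28, limma adjusted p = 0.0911), and without that mouse it was 0.46 with an adjusted p of 0.187. With the clock score as a covariate the adjusted p of Bnip3 was 0.0131, and over the 29 alternatives it ran from that value to 0.256. A share of 47.2% of the 50-base reads of its transcripts is also found in another annotated gene, chiefly AC160336.1, so the level of Bnip3 is uncertain.

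Vegfa, the main growth signal for blood vessels, had 4.67, 6.05 and 8.02 FPKM in AIMD mice and 3.11, 5.03 and 10.3 FPKM in vehicle-treated mice. Its AIMD range lay within the vehicle range. The log2 fold change was 0.26 (SE 0.22, limma adjusted p = 0.394). Vehicle replicate 8, the highest for Vegfa, Epas1, Egln1 and Egln3 among vehicle-treated mice, also had a summed level of smooth muscle markers of 3037 FPKM against 519 to 1380 FPKM in the other vehicle-treated mice, and of neuron and glia markers of 60.7 against 3.76 to 19.4 FPKM. The part of that tissue in the values of this mouse was not tested; without it the adjusted p of Vegfa was 0.118.

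**Figure D1:**
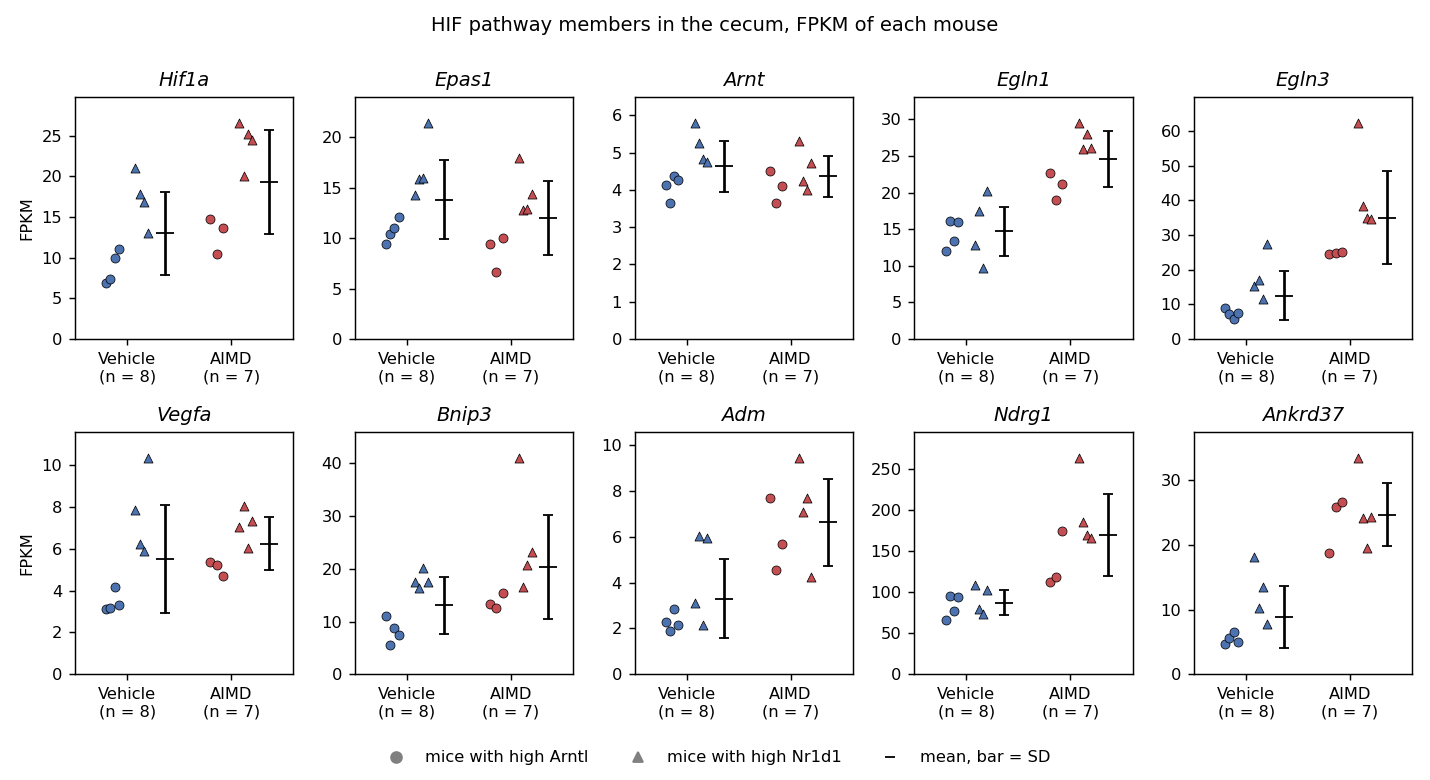
FPKM of each member in each mouse, for 8 vehicle-treated (blue) and 7 AIMD mice (red), on linear axes from 0; circles are mice with high Arntl, triangles mice with high Nr1d1, and the dash with its bar is the mean ± SD of the group. Ankrd37 and Ndrg1 do not overlap between the groups, while in Hif1a, Epas1, Egln3, Vegfa and Bnip3 the triangles lie above the circles within both groups.

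Set in order of mean FPKM, vehicle-treated mice had Ndrg1 first at 87.2, then Egln1, Epas1, Bnip3, Hif1a and Egln3 between 12.5 and 14.7, which lay within 1 SD of each other, then Ankrd37 at 8.94, Vegfa at 5.51, Arnt at 4.63 and Adm at 3.30. In AIMD mice Ndrg1 was again first at 169.8, followed by Egln3 at 35.0, Ankrd37 and Egln1 at 24.7 and 24.6, Bnip3 at 20.4, Hif1a at 19.3 and Epas1 at 12.0. Adm at 6.61 and Vegfa at 6.24 did not differ beyond their SDs, and Arnt was last at 4.36. Egln3 thus stood sixth in one group and second in the other.

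The balance between the alpha subunits and between the sensors was followed as a ratio within each mouse, which removes what moves both genes together. The ratio of Epas1 to Hif1a FPKM was 0.510, 0.635 and 0.736 (lowest, median, highest) in AIMD mice, while vehicle-treated mice had 0.677, 1.10 and 1.65. Of the AIMD mice, 6 of 7 lay below every vehicle-treated mouse. The mean log2 ratio was -0.67 ± 0.16 (SD, n = 7) against 0.14 ± 0.41 (SD, n = 8), a difference of -0.82, with p = 0.000622 by a two-sided exact permutation test over mice and 0.00124 after adjustment over the 2 ratios; the smallest p the test can give is 0.000155. Neither subunit alone passed its test with all mice together. Ratios of other gene pairs were not compared, and 36.0% of all genes tested were called different. How common such a shift is among pairs of genes is therefore not known.

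The ratio of Egln3 to Egln1 was 1.09, 1.31 and 2.11 in AIMD mice, while vehicle-treated mice had 0.433, 0.855 and 1.35. The AIMD mice all had more Egln3 than Egln1 per length, as did 3 of the vehicle-treated mice. The mean log2 ratio was 0.45 ± 0.31 (SD, n = 7) against -0.38 ± 0.70 (SD, n = 8), a difference of 0.83 with an exact permutation p of 0.0146, unchanged by adjustment over the 2 ratios.

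**Figure D2:**
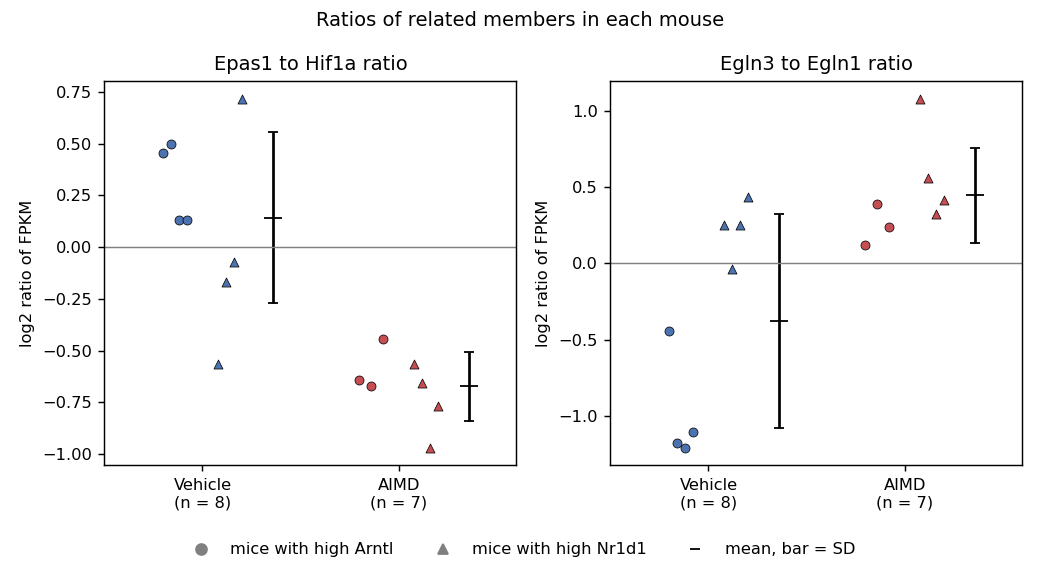
Log2 ratio of Epas1 to Hif1a FPKM (left) and of Egln3 to Egln1 FPKM (right) in each mouse, with colours, shapes and mean ± SD as in the plot of single members; the line at 0 marks equal levels. All AIMD mice lie below 0 on the left and above 0 on the right.

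The mice fell into a pair of sets by their clock genes, which was seen in the data and is not in the labels. In 7 mice, AIMD replicates 1 to 3 and vehicle replicates 1 to 4, the clock activator Arntl was at 12.5 to 20.7 FPKM and its repressor Nr1d1 at 0.658 to 3.12 FPKM. In the other 8 mice Arntl was at 4.00 to 9.90 and Nr1d1 at 3.21 to 8.76 FPKM. The authors' own model held the time of sacrifice as a factor, and whether these sets are times of sacrifice was not tested. Within AIMD mice, 6 of the 10 members were higher in every mouse with high Nr1d1 than in every mouse with high Arntl (Hif1a, Epas1, Egln1, Egln3, Vegfa and Bnip3), as were 7.41% of all genes tested. Within vehicle-treated mice it was 7 of 10 (Hif1a, Epas1, Arnt, Egln3, Vegfa, Bnip3 and Ankrd37), beside 6.52% of all genes.

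Hif1a shows the pattern. It was at 10.5 to 14.8 FPKM in AIMD mice with high Arntl and 20.1 to 26.6 FPKM in AIMD mice with high Nr1d1, and at 6.85 to 11.05 and 13.0 to 21.0 FPKM in the vehicle-treated mice. In Bnip3 the same sets were at 12.7 to 15.4 and 16.5 to 41.0 FPKM in AIMD mice and at 5.62 to 11.1 and 16.5 to 20.1 FPKM in vehicle-treated mice. Vegfa ran from 3.11 to 4.18 FPKM in vehicle-treated mice with high Arntl and from 5.87 to 10.3 FPKM in those with high Nr1d1.

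Compared within the sets in a single limma fit, the difference between AIMD and vehicle-treated mice kept its direction in 9 members and changed it in Vegfa, with a log2 fold change of 0.51 (SE 0.18, adjusted p = 0.0739) among mice with high Arntl and -0.06 (SE 0.17, adjusted p = 0.816) among mice with high Nr1d1. Among mice with high Arntl, Egln3, Ankrd37 and Adm were called higher, beside 7.62% of all genes. Among mice with high Nr1d1, Egln3, Ankrd37, Egln1 and Ndrg1 were called higher, beside 16.3% of all genes. The largest gap between the sets was in Ankrd37, with log2 fold changes of 2.02 and 1.04 (limma adjusted p of the difference 0.972). The difference between the sets reached an adjusted p under 0.05 in 0 of the 11971 genes by limma. At an unadjusted p under 0.05 there were 534 genes, of which Ankrd37 and Vegfa were members. This is under 1 in 20 of the genes tested, the share that such a threshold passes where nothing differs. The log2 difference in the Epas1 to Hif1a ratio was -0.89 and -0.72 in the sets, and in the Egln3 to Egln1 ratio 1.23 and 0.37. Among mice with high Arntl the Egln3 to Egln1 ratio was 1.09 to 1.31 in AIMD and 0.433 to 0.736 in vehicle-treated mice. Among mice with high Nr1d1 the groups overlapped, at 1.25 to 2.11 and 0.973 to 1.35. Neither ratio was tested within the sets. With the clock score as a covariate over all mice, limma called 7 members higher, adding Hif1a and Bnip3, beside 21.1% of all genes.

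**Figure D3:**
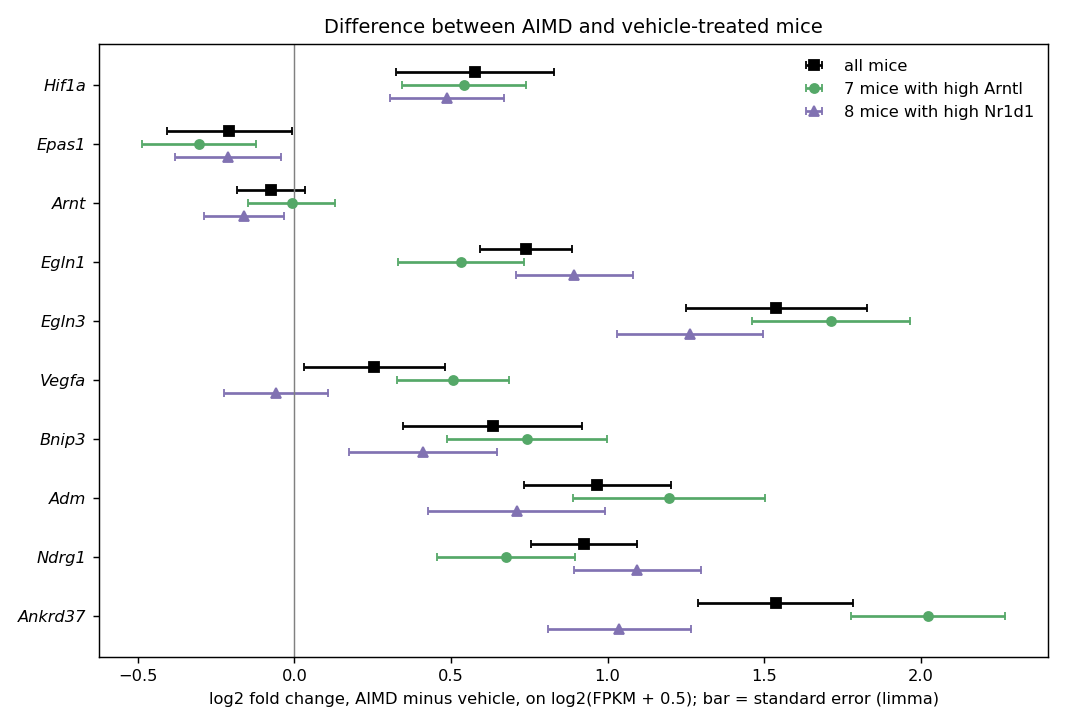
Log2 fold change of AIMD over vehicle-treated mice for each member, with its standard error from limma, over all 15 mice (squares), over the 7 mice with high Arntl (circles) and over the 8 mice with high Nr1d1 (triangles). Egln3 and Ankrd37 lie well above 0 in all 3, and Vegfa changes side between the sets.

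The same few mice were often at the ends of the range. AIMD replicate 4 was the highest AIMD mouse in 9 of the 10 members, all but Vegfa, and AIMD replicate 2 was the lowest in 5. Among vehicle-treated mice, replicates 5 and 8 were each the highest in 4 members and replicate 1 the lowest in 5. AIMD replicate 4 and vehicle replicate 8 had the fewest reads on genes in their groups, 8679640 and 4372377. The part of depth in their values was not tested. Without AIMD replicate 4 and vehicle replicate 8 the same 5 members were called higher by limma, beside 20.3% of all genes, with adjusted p from 0.000112 for Egln3 to 0.00233 for Adm, and Hif1a (0.150), Bnip3 (0.123) and Vegfa (0.172) were not.

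Beyond the members, the other genes that control HIF were called lower more often than higher: of 15 tested, 6 fell and 1 rose, beside 16.6% and 19.4% of all genes, with a median log2 fold change of -0.13. Of these, 4 belong to the ligase that removes hydroxylated HIF, which was not a list of its own. Vhl, its substrate receptor, was at 14.3 ± 3.24 FPKM in AIMD mice and 19.6 ± 3.54 FPKM in vehicle-treated mice (log2 fold change -0.45, SE 0.14, limma adjusted p = 0.0211). Its adjusted p ran from 0.00447 to 0.199 over the 29 alternatives, of which 4 lost the call, and was 0.0509 without AIMD replicate 6. Tceb2 and Tceb1, which encode the elongins that link VHL to the ligase, had log2 fold changes of -1.01 (limma adjusted p = 0.00153) and -0.60 (0.0141). Rbx1, the ring-finger subunit that these ligases share with many others, had -0.78 (limma adjusted p = 0.00274). Cul2, the scaffold of the same complex, was at 11.2 ± 0.900 and 11.4 ± 2.37 FPKM and did not pass the test (limma adjusted p = 0.986), so the subunits measured did not all move. Cul2, Siah1a and Siah2 were named after their values were seen.

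The 1 control gene that rose was Cited2, which HIF switches on and which competes with HIF for its coactivator p300. It was at 37.0 ± 5.18 FPKM in AIMD mice and 17.3 ± 4.82 FPKM in vehicle-treated mice (log2 fold change 1.11, limma adjusted p = 7.49e-05). All AIMD mice lay above all vehicle-treated mice, as in 5.27% of all genes tested. The other falls were in Siah1a and Siah2, ligases that degrade the EGLN enzymes, with log2 fold changes of -0.40 and -0.31 (limma adjusted p = 0.0419 and 0.0138). The remaining sensors had log2 fold changes of -0.13 for Egln2 (limma adjusted p = 0.602) and 0.09 for Hif1an, the asparagine hydroxylase of HIF (0.697). Hif3a, the third alpha subunit, was below 0.4 FPKM in every mouse and was not tested.

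Among 13 tested receptors, ligands and paralogs of the member targets, 4 fell, beside 16.6% of all genes, and the other 9 did not pass the test; their median log2 fold change was -0.24. The vessel receptor Kdr, on which VEGFA acts, was at 1.01 ± 0.231 FPKM in AIMD mice and 1.39 ± 0.512 FPKM in vehicle-treated mice (log2 fold change -0.29, limma adjusted p = 0.190). Over the 29 alternatives the adjusted p of Kdr ran from 0.0261 to 0.751, and 2 called it lower: with the clock set as a factor (0.0485) and among mice with high Nr1d1 (-0.51, 0.0261). Flt1, its decoy, was too low to test. The receptor of adrenomedullin needs Calcrl and a RAMP protein: Calcrl had a log2 fold change of -0.29 (limma adjusted p = 0.227), Ramp2 of -0.12 (0.610) and Ramp1, which turns Calcrl into a receptor for CGRP, of -0.77 (0.00495). A share of 30.7% of the Ramp2 reads could also be assigned to Vps25, which overlaps it. Bnip3l, the paralog of Bnip3, was at 35.6 ± 6.60 and 28.8 ± 8.05 FPKM (log2 fold change 0.33, limma adjusted p = 0.132), with 20.8% of its reads shared with a pseudogene. Ndrg4, a nerve-associated paralog of Ndrg1, fell by 1.19 on the log2 scale (limma adjusted p = 0.00853), and Vegfb by 0.39 (0.0390), a call that 14 of the 29 alternatives lost.

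Of 34 other HIF target genes tested, 16 rose and 4 fell, beside 19.4% and 16.6% of all genes, with a median log2 fold change of 0.32. The largest rises were in Ak4, a mitochondrial adenylate kinase, at 29.9 ± 10.5 against 5.80 ± 2.06 FPKM (log2 fold change 2.29, limma adjusted p = 1.69e-06), in the lactate exporter Slc16a3 at 2.41 ± 0.740 against 0.367 ± 0.0983 FPKM (1.71, adjusted p = 6.36e-07), and in the vessel-constricting peptide gene Edn1 at 11.7 ± 1.53 against 3.65 ± 1.06 FPKM (1.58, adjusted p = 1.78e-06). In all 3, which were named for the size of their rise, all AIMD mice lay above all vehicle-treated mice. The same held for 5.27% of all genes tested. The falls were led by Ppp1r3c, a glycogen regulator (-0.87, limma adjusted p = 0.0106), the collagen lysyl hydroxylase Plod1 (-0.77, 0.000129) and Mif, a cytokine (-0.67, 0.0154). Car9 and Slc2a1, a carbonic anhydrase and a glucose transporter widely used to report HIF activity, did not pass the test and were named after their values were seen: Car9 was at 84.2 ± 19.3 and 85.1 ± 17.3 FPKM (limma adjusted p = 0.929) and Slc2a1 at 44.8 ± 11.5 and 54.2 ± 12.8 FPKM (0.227).

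Glycolysis genes that HIF controls were raised in 9 of 13 tested, beside 19.4% of all genes, with a median log2 fold change of 0.64, and the other 4 did not pass. The authors had already reported rises of Hk2, Pfkp, Pgk1, Pgam1, Eno1 and Ldha in these ceca. For those genes the count repeats a known result of the same data. Hexokinase 2 (Hk2) had a log2 fold change of 1.56 (limma adjusted p = 6.58e-05) and the platelet phosphofructokinase Pfkp one of 1.41 (9.06e-07). Pgam1 had 1.97 (limma adjusted p = 7.17e-06) but only 4.08 ± 1.28 and 0.661 ± 0.313 FPKM; it has processed copies elsewhere in the genome, as has Gapdh, which was listed at 0.380 and 0.208 FPKM and was not tested, so these levels are uncertain.

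Of 8 HIF targets of the intestinal barrier that were tested, 2 were called higher and 3 lower, beside 19.4% and 16.6% of all genes. Tff3, the trefoil peptide of goblet cells, was at 1226 ± 370.2 FPKM in AIMD mice and 584 ± 255 FPKM in vehicle-treated mice (log2 fold change 1.14, limma adjusted p = 0.00365). Ckb, a creatine kinase, was at 5.32 ± 1.69 and 22.5 ± 17.95 FPKM, with all AIMD mice below all vehicle-treated mice, which held for 3.30% of all genes (-1.79, limma adjusted p = 0.000371; -1.40 and 8.37e-05 without AIMD replicate 4 and vehicle replicate 8). The adenosine receptor Adora2b fell from 13.3 ± 6.35 FPKM in vehicle-treated mice to 4.12 ± 1.46 FPKM (limma adjusted p = 0.000368). Abcb1a, the P-glycoprotein drug pump, fell by 0.57 (limma adjusted p = 0.0435), a call that 12 of the 29 alternatives lost. Of 3 tested iron genes that HIF2 controls, 1 was called higher and 0 lower, beside 19.4% and 16.6% of all genes, and the other 2 did not pass. The 1 called was the iron exporter Slc40a1, which rose to 10.1 ± 2.47 from 4.64 ± 1.75 FPKM (1.08, limma adjusted p = 0.000819).

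**Figure D4:**
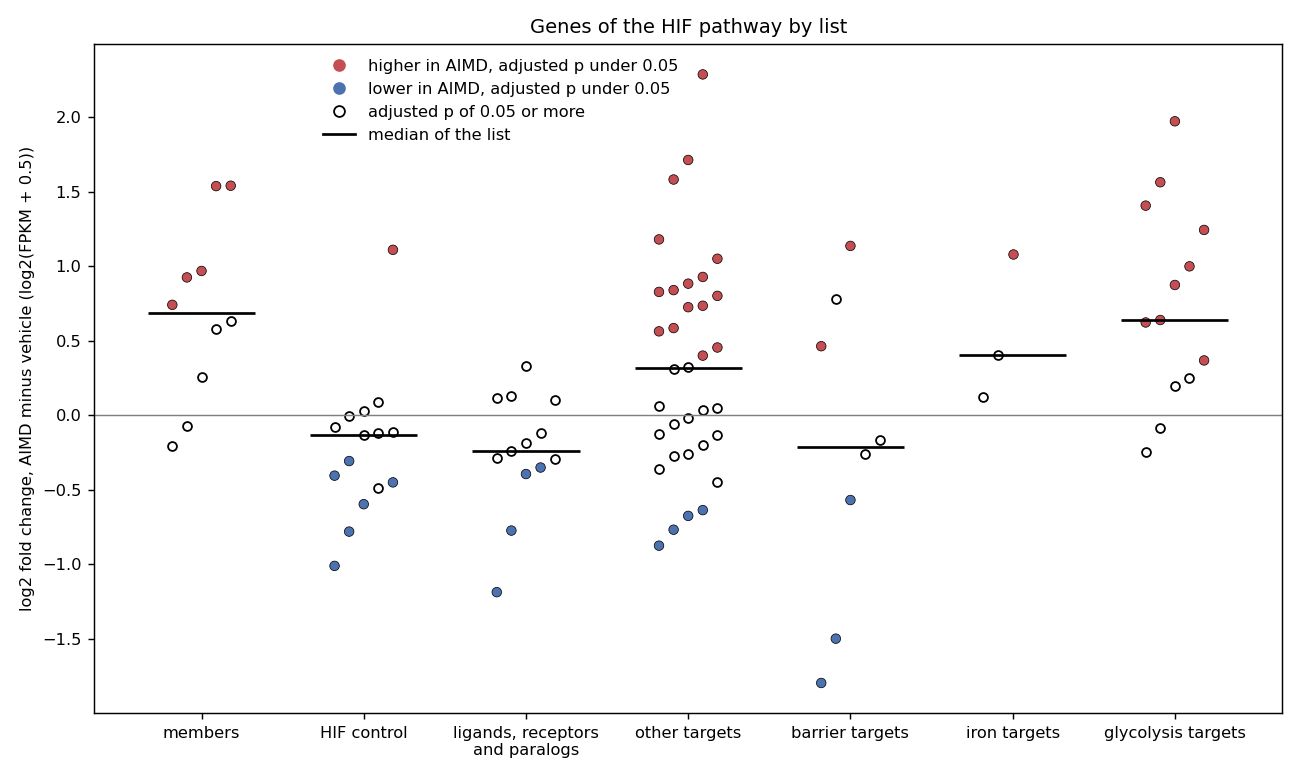
Log2 fold change of AIMD over vehicle-treated mice for every tested gene of each list, with filled points for genes at an adjusted p under 0.05 (red higher, blue lower), open points for the rest and a bar at the median of the list. The member, other-target and glycolysis lists have medians of 0.69, 0.32 and 0.64, and the control and receptor lists of -0.13 and -0.24.

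Counts of called markers are to be set beside the shares over all genes tested, 19.4% higher and 16.6% lower. Those of smooth muscle, endothelium and immune cells were near these shares. Defining epithelial markers were present in every library and summed to 4397 to 6909 FPKM in AIMD mice and 3752 to 5654 FPKM in vehicle-treated mice, with 2 of 8 genes called higher and 1 lower. Sums of the other lists leaned to the vehicle-treated mice: smooth muscle 214 to 817 against 519 to 3037 FPKM (1 of 7 genes lower), neurons and glia 2.51 to 4.42 against 3.76 to 60.7 FPKM (3 of 4 lower), red blood cells 22.6 to 61.6 against 34.6 to 124 FPKM (2 of 5 lower), adipocytes 11.6 to 19.9 against 11.2 to 45.4 FPKM (1 of 3 lower), endothelium 7.18 to 10.3 against 8.12 to 14.3 FPKM (1 of 6 lower) and immune cells 14.9 to 58.4 against 32.6 to 71.98 FPKM (2 of 10 higher, 1 lower). A sum is weighted to its most abundant genes, and the immune list did not lean as a whole. The median log2 fold change of its tested genes was 0.11, with Csf1r and Cd68 called higher and Cd79b lower. Cd79b, the largest part of that sum in all mice but AIMD replicate 1, was at 3.64 to 25.7 FPKM in AIMD mice. In vehicle-treated mice it was at 17.1 to 44.9 FPKM. Cidec was the largest part of the adipocyte sum in every mouse. Vwf of the endothelial list and Plin1 and Lep of the adipocyte list had medians under 0.1 FPKM. The part of these cell types in the values of the members, of Kdr and of Ndrg4 was not tested.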

How the data were processed

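Cecal RNA of 7 AIMD and 8 vehicle-treated mice, grouped and numbered from the sample labels, was sequenced by the authors from stranded poly-A libraries as single reads of 50 bases. They aligned reads with STAR (GRCm38), ran featureCounts on GENCODE genes, and deposited 1 column of FPKM per mouse. How counts became FPKM, the strand setting and the tool versions are not given in the sources used here. The authors tested counts with DESeq2 and allowed for the time of sacrifice; the labels hold no time, so it was not used.

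The table has 45808 rows, of which 4 with a repeated symbol were left out and 27 carry a symbol that had become a date. Means, SDs and ranges are of the FPKM as deposited. For tests, values were scaled by size factors (median of ratios, 1.01 in every library) and taken as log2(FPKM + 0.5), so fold changes of low genes are understated. The 11971 genes at 0.5 FPKM or more in at least 7 mice were compared with limma 3.58.1 in R 4.3.3 (lmFit and eBayes with trend), two-sided, with Benjamini-Hochberg adjustment over all of them and a threshold of 0.05. No gene list was tested as a set. The 2 ratios were compared by an exact permutation test on every split of the mice (numpy 2.4.6). Whole reads were recovered from the FPKM steps for 100% of the 24279 genes above 0, within 0.02 of a whole number, and served for limma voom and for depth. The clock score was the mean standardised level of clock genes of the Arntl phase minus that of the Nr1d1 phase (12 genes in all), centred within groups, and the sets of mice by clock genes came from k-means with 2 clusters on the same genes, chosen after seeing the data, as was leaving out AIMD replicate 4 and vehicle replicate 8 together. On simulated data with 200 changed genes, run over 12143 genes, limma called 94.0% of them with the right sign, and of its 194 calls 3.09% were false. The simulation gave all genes the same dispersion, used larger folds than many reported here, and had no clock sets. It also held far fewer changed genes than were called in the real data. Its rates therefore check the method and do not measure power or error in these data.

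Nothing in the labels says which mice shared a cage, so p-values measure the spread between these mice. Gene positions and reads shared with other genes came from GENCODE M21, and promoter windows from RefSeq, both on GRCm38. Named in the text are all members, the closest relatives and receptors of the members, and from each other list up to 3 rises and 3 falls that were largest among called genes with a mean of at least 1 FPKM in the higher group. The members and lists were chosen with earlier results of these data known. Alternatives were the pseudocount, the filter, the scaling, voom, an exact rank-sum test, the clock score, the replicate number as a block and leaving out each mouse.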

Additional observations from a re-analysis of the deposited data

Results flagged for a closer look

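Values of 98 sets (a gene or marker sum in 1 group of mice) were checked for a single mouse far from the others. The check used the gap to the nearest mouse over the range and Dixon's critical value, and 12 were found. For independent, normally distributed values about 1 in 20, or 4.9, would be found. These sets share the same mice and FPKM was not put on a log scale, so that number is only a rough guide. In AIMD replicate 4, 4 genes stood above the other AIMD mice: the member Egln3 at 62.5 FPKM against 24.7 to 38.3, the member Bnip3 at 41.0 against 12.7 to 23.3, Vhl at 21.2 against 11.8 to 14.96, and Ak4 at 52.5 against 21.7 to 30.1. In vehicle replicate 8, 3 genes stood above the other vehicle-treated mice: Hif3a at 0.374 FPKM against 0 to 0.114, Ndrg4 at 12.2 against 1.02 to 3.31, and Ckb at 65.4 against 11.2 to 23.3. The same mouse had the outlying marker sums, with smooth muscle at 3037 FPKM against 519 to 1380, adipocytes at 45.4 against 11.2 to 26.5, and neurons and glia at 60.7 against 3.76 to 19.4. Of the adipocyte sum in that mouse, 32.8 FPKM was Cidec. Rbx1 was at 146.0 FPKM in vehicle replicate 1 against 63.4 to 98.4, and Adora2b at 26.6 FPKM in vehicle replicate 7 against 5.20 to 15.01. The fold changes of Egln3 and Ckb kept their calls without AIMD replicate 4 and vehicle replicate 8, and the cause of these values was not tested.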

How the results depend on the processing

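Of 290 comparisons of a member's log2 fold change with its value under 29 alternatives, 277 kept their direction and side of the threshold, 9 gained a call, 3 lost one and 1 changed direction (Vegfa, -0.0587 among mice with high Nr1d1). Among the other named genes, 768 of 810 were the same, and the changes of direction were in Hif1an (-0.0794 among mice with high Arntl) and Ramp2 (0.27 among those mice and 0.00753 without AIMD replicate 4 and vehicle replicate 8), none of them called. Among the 7 mice with high Arntl, where fewer mice entered, 3 members were called higher in place of 5, 2 HIF control genes lower in place of 6, 0 receptor and paralog genes lower in place of 4, and 1 other target lower in place of 4. Without the filter 2 control genes were called higher in place of 1. Leaving out each mouse in turn gave 5 to 6 members higher, 4 to 7 control genes lower and 2 to 4 receptor and paralog genes lower, with 2 without AIMD replicate 1 or without AIMD replicate 7; the log2 difference of the Epas1 to Hif1a ratio ran from -0.92 to -0.73, and that of the Egln3 to Egln1 ratio from 0.71 to 0.94.

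The replicate number as a block gave 8 members higher, beside 19.9% of all genes, adding Hif1a, Bnip3 and Vegfa (limma adjusted p = 0.0110, 0.0442 and 0.0483). The labels give no pairing, but 6 of the 7 same-numbered pairs fell in the same clock set, so the block largely repeats that split. Vehicle replicate 8 has no AIMD mouse of its number, so the block also leaves it out of the difference. The part of either in the added calls was not tested. The correlations between same-numbered mice of their deviations from the group means ran from -0.35 to 0.43. Only AIMD replicate 7 correlated best with the vehicle-treated mouse of its own number. Both ratios kept their direction with the 7 same-numbered pairs (exact p = 0.0156, the smallest such a test can give). Adm had the fewest reads of the members, 23 to 91 in vehicle-treated mice. Egln3 and Ankrd37 were called in all 29 alternatives.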
